A study of Saccharomyces cerevisiae with 8 samples.

Results

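Small nucleolar RNA (snoRNA) genes were examined in maps of open chromatin from budding yeast, Saccharomyces cerevisiae. The members were all genes annotated as snoRNA genes on the 16 nuclear chromosomes, 76 of the 6430 nuclear genes with a known strand. They were sorted by the annotation alone. A total of 51 stand singly, 17 lie in 5 clusters of same-strand snoRNA genes no more than 500 bp apart, and 8 lie wholly inside a protein-coding gene, in an intron.

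The study mapped open chromatin by ATAC-seq, in which the transposase Tn5 cuts and tags accessible DNA, in haploid MATa cells of the S288c background. Its 8 samples form 4 groups of 2 independent experiments. The control strain, CEN4, has a chromosome IV centromere without flanking lox sites and was taken at 0 min without treatment and at 180 min with beta-estradiol at 1 uM. The strain named CEN4* has lox sites on both sides of that centromere, was taken untreated at 0 min, and is named cen4- at 180 min with the same dose, once Cre recombinase has removed the centromere. Because the control also received beta-estradiol, the 180 min groups of both strains share the agent and the time. The values come from the authors' 4 deposited peak lists, which carry a strain code, 8 or 11, and a time. Which code is CEN4 and which CEN4* is stated in no label, so the codes serve as names. With 1 list per code and time there were no replicate lists, and every difference below is described without a test.

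snoRNAs work as guides inside small nucleolar ribonucleoproteins. Box C/D snoRNAs pair with ribosomal RNA and direct methylation of its riboses by Nop1, and box H/ACA snoRNAs direct conversion of uridine to pseudouridine by Cbf5; a few, such as U3 and U14, are needed to cut the ribosomal precursor. In budding yeast most snoRNAs have their own RNA polymerase II promoter, some are cut from a polycistronic transcript by the endonuclease Rnt1, and a few are released from the introns of host mRNAs. The factor Tbf1 is known to bind many snoRNA promoters in this species, and promoters in general appear in ATAC-seq as short regions free of nucleosomes.

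The lists held 6588 to 7093 sub-peaks, each with a summit, in 3595 to 3699 open regions. Reads per sample are unknown. The genome-wide background pileup recovered from each list, a measure of relative depth, was 413.8 at 0 min and 439.2 at 180 min for code 8, and 601.7 and 512.2 for code 11. The labelled mating type was set beside its markers. All 5 a-specific genes had a promoter summit in each list. Of 3 alpha-specific genes only STE3 did, apart from a summit of 1.22 times background at MF(ALPHA)2 in code 11 at 180 min. Over all genes 64.8 to 65.9% had a promoter summit, so counts of so few markers cannot decide the mating type. A promoter summit means here a sub-peak summit between 400 bp before and 100 bp after the gene start. Its height is the relative pileup, the number of fragments stacked at the summit divided by the genome-wide background of its list, and where a window held several summits the highest was taken.

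A promoter summit was called at 58 of the 76 snoRNA genes in code 8 at 0 min, which is 76.3% (exact Clopper-Pearson 95% interval 65.2 to 85.3%). The count was 55, or 72.4% (60.9 to 82%), in each of the other lists. Such intervals cover counting error only. Over all nuclear genes the share was 65.1% and 65.0% for code 8 and 65.9% and 64.8% for code 11, at 0 and 180 min. The lower bound for snoRNA genes was thus at the all-gene share in the first list and below it in the others. Among the 275 tRNA genes the share ran from 76.4 to 81.5%. The snoRNA count hid a split by gene class. Of the 51 single genes 47, 45, 46 and 45 had a summit in the code 8 lists for 0 and 180 min and the code 11 lists for 0 and 180 min, and values below keep that order. The lowest of these shares was 88.2% (76.1 to 95.6%), and its lower bound lay above the all-gene share. Of the 17 clustered genes 11, 10, 9 and 10 had one. None of the 8 intronic snoRNA genes had one in any list, so a share of up to 37.5% remains possible by a floor of 3 counts (exact upper bound 36.9%).

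The same members were called in list after list. A summit was present in all 4 lists at 52 members, 44 single and 8 clustered, in 3 lists at 4 members (snR13, snR43, snR73 and snR128), in 2 lists at snR74 and in 1 list at snR66. The other 18 members had none.

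**Figure D1:**
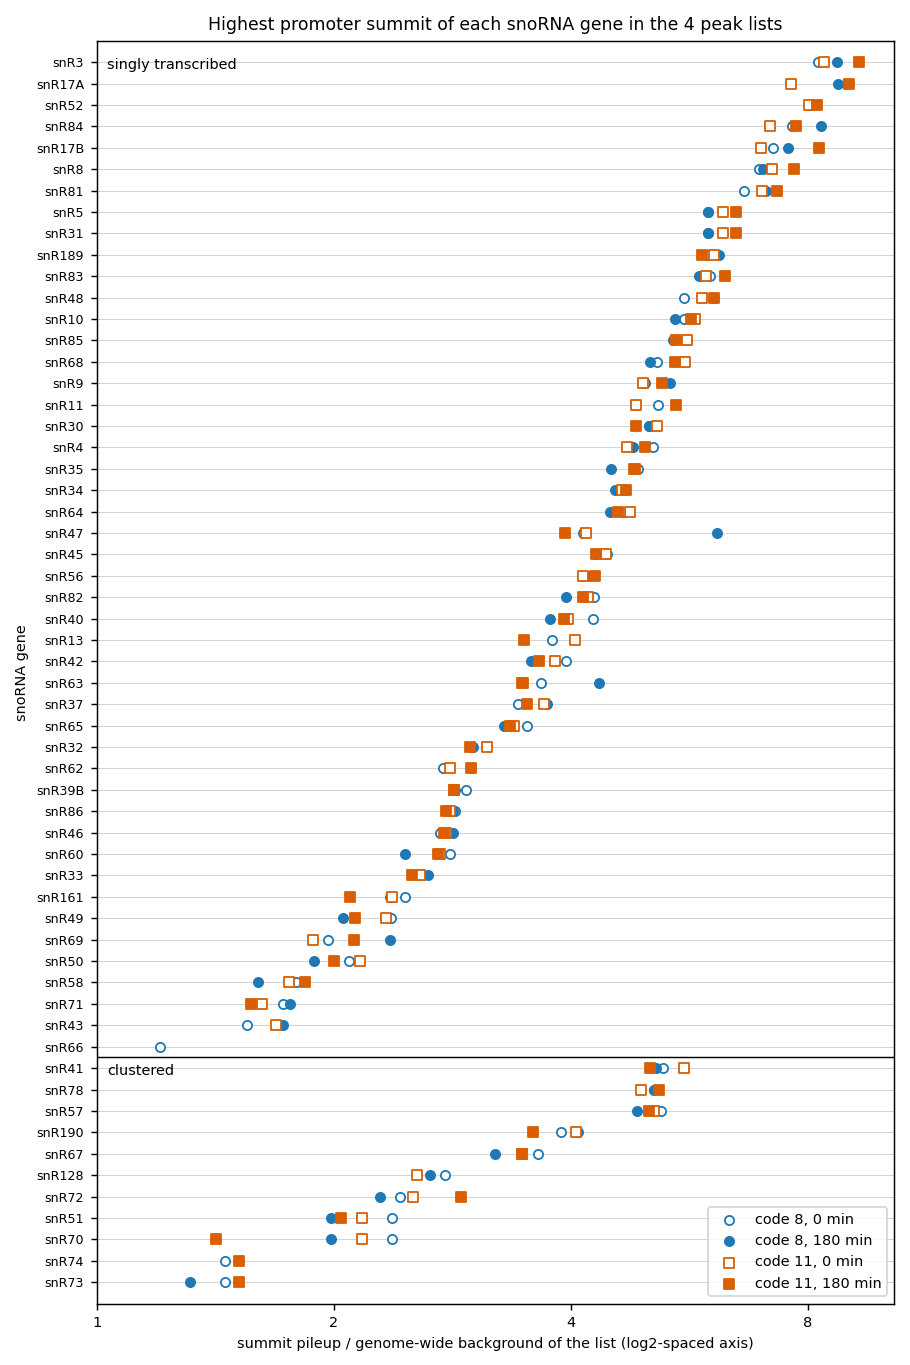
Height of the highest promoter summit (relative pileup, horizontal axis with log2 spacing) of each snoRNA gene with a summit in at least 1 list, with 1 marker per list (circles code 8, squares code 11, open 0 min, filled 180 min). Most genes keep their level over the 4 lists, snR47 stands out by its code 8 value of 6.14 at 180 min, and the lower genes among the clustered ones are the later genes of their clusters.

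Where snoRNA genes had a promoter summit, its median height was 4.14, 4.34, 4.18 and 4.14 times background, against 3.74, 3.66, 3.67 and 3.78 for all genes and 4.53, 4.47, 4.47 and 4.67 for tRNA genes. The order against all genes depended on the measure. By the authors' fold over local background the snoRNA medians were 3.09, 3.07, 3.12 and 3.15 and those of all genes 3.17, 3.11, 3.11 and 3.21, so on that scale the snoRNA median was the lower one in 3 lists and slightly the higher one in code 11 at 0 min. The regions that held the summits were wide, with a median of 920, 945, 906 and 870 bp against 523.5, 504, 536.5 and 501.5 bp for all genes. Heights of the 52 members with a summit in every list ran in nearly the same order in each list. Pearson's r of log2 heights between any pair of lists lay from 0.973 to 0.994, as a description across genes that share their libraries and in part their summits. Positions were as steady, since the highest summit moved by a median of 7 bp over the 4 lists and by no more than 20 bp at 47 of the 52.

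Among the single genes, summits of box H/ACA genes lay nearer to the gene than those of box C/D genes. The median position was -145, -146, -146 and -152 bp from the gene start for the 25, 25, 25 and 24 H/ACA genes with a summit and -208, -204, -204 and -203 bp for the 22, 20, 21 and 21 C/D genes with one, with negative values upstream. In code 8 at 0 min the middle 50% of genes lay from -190 to -116 bp in the first class and from -252.5 to -173 bp in the second. Protein-coding genes had their median at -179 bp and tRNA genes at 65 bp, inside or just past the gene, in the same list. Heights also differed by box, with medians of 4.96, 4.82, 4.83 and 5.03 for single H/ACA genes and 3.96, 4.29, 4.04 and 3.92 for single C/D genes. Their ranges overlapped widely, from 1.55 to 8.24 and from 1.2 to 8.97 in code 8 at 0 min.

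Gene orientation went with height as well. Single genes whose upstream neighbour is transcribed away from them had medians of 4.99, 5.03, 5.04 and 5.22 over the 26, 26, 26 and 25 with a summit. Those whose upstream neighbour runs in the same direction had 3.66, 3.76, 3.83 and 3.50 over 21, 19, 20 and 20. Position differed by orientation too. The medians were -147.5, -151.5, -149.5 and -154 bp for the divergent genes and -190, -194, -187 and -196 bp for the tandem ones. Box class and orientation overlap, since 16 of all 27 divergent and 11 of all 24 tandem single genes are H/ACA. Their parts in the differences of height and position were not separated. In code 8 at 0 min the highest summit of 23 of the 58 snoRNA genes was also the highest summit of another gene, a protein-coding gene in 15 cases. That is 39.7% of them, against 34.9% of all genes with a summit. One such summit, picked after its values were seen, served snR5 and snR31, which are H/ACA guides transcribed away from each other 220 bp apart on chromosome XV. It measured 5.98, 5.97, 6.25 and 6.49.

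Some examples of such pairs, picked after their values were seen, follow. snR8, an H/ACA gene, shared its summit of 6.94, 7.01, 7.20 and 7.68 with FSF1, and snR45 shared its summit with NOC4, a gene of small-subunit assembly. snR42, an H/ACA gene with 3.94, 3.56, 3.82 and 3.64, shared its summit with TFA2, which encodes a subunit of the general transcription factor TFIIE. snR33, an H/ACA gene with 2.60, 2.64, 2.58 and 2.51, shared one with the tRNA gene SUF16. In each pair the sharing was read in code 8 at 0 min. The snR33 summit, at -215 bp, lay past the gap of 154 bp between the genes and over SUF16 itself. For the other pairs, which of both genes a summit belongs to cannot be told apart from position alone.

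**Figure D2:**
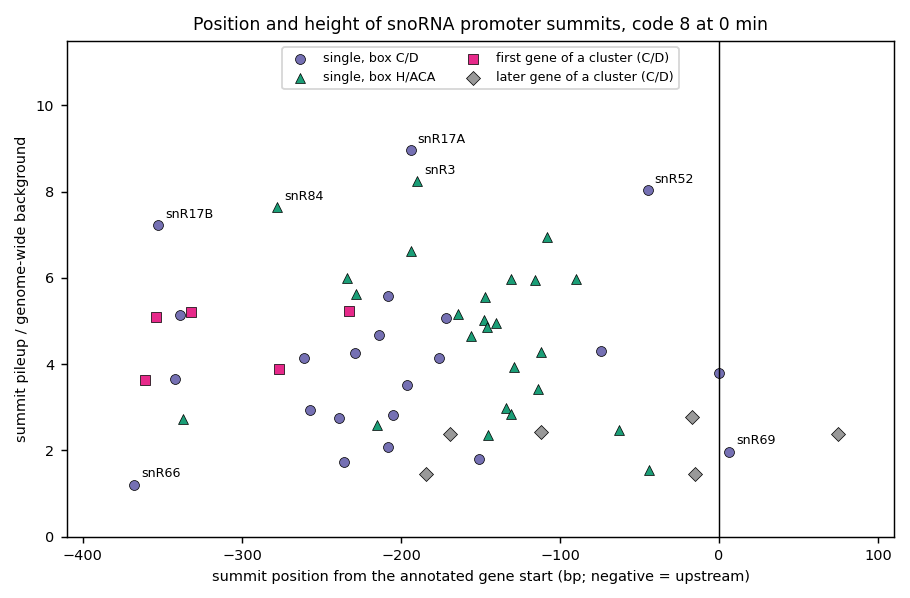
Position of the highest promoter summit from the annotated gene start (horizontal axis, bp, negative upstream) against its height (relative pileup, vertical axis) in code 8 at 0 min, with 1 point per snoRNA gene. Single H/ACA genes (triangles) centre on -145 bp and single C/D genes (circles) on -208 bp, while first genes of clusters (squares) lie from -361 to -233 bp.

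The highest summits among single genes, ranked by the mean of log2 height over the 4 lists, belonged to snR3, snR17A, snR52, snR84 and snR17B. snR3, an H/ACA guide on chromosome X, had 8.24, 8.70, 8.39 and 9.30 times background at -190 bp in the first list. snR17A and snR17B are the 2 gene copies of U3, which is required for the first cuts of the ribosomal precursor. snR17A measured 8.97, 8.72, 7.62 and 9.01, and snR17B measured 7.22, 7.54, 6.98 and 8.26. Both genes lie divergent from a copy of the ribosomal protein gene RPL33, with snR17A 701 bp from RPL33B and snR17B 604 bp from RPL33A. The snR17B summit at -353 bp was also the highest one of RPL33A in code 8 at 0 min. Upstream of snR17A a higher summit of 12.2, 11.6, 11.2 and 12.6 lay at -435, -427, -431 and -437 bp, just outside the window, so the values given for snR17A describe the lower summit of that intergenic region.

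snR52, which is known to be transcribed by RNA polymerase III, had the most even values of the 5, at 8.04, 8.11, 8.02 and 8.21. Its summit lay at -45, -45, -43 and -47 bp, closer to the gene than the median of either box class. snR84, an H/ACA gene 1559 bp from its upstream neighbour, measured 7.63, 8.30, 7.16 and 7.72 in a narrow region of 347 to 361 bp. By the authors' fold over local background snR84 was near the median of all genes with a summit. It had 3.29, 3.11, 3.09 and 3.21, beside medians of 3.17, 3.11, 3.11 and 3.21. Its summit stood at -277 or -278 bp in every list and no open region reached the gene itself.

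The lowest summits among single genes with one in all lists belonged to snR71, snR58, snR50, snR69 and snR49. The first 4 are C/D guides of ribosomal RNA methylation and snR49 is an H/ACA guide. snR71 had 1.72, 1.76, 1.62 and 1.57 times background and snR58 had 1.79, 1.60, 1.75 and 1.84. snR50 measured 2.09, 1.89, 2.16 and 2.00, and snR49 measured 2.36, 2.06, 2.33 and 2.12. These values lay low among all genes with a summit, from percentile 2.5 for snR71 to percentile 16.8 for snR49 in code 8 at 0 min. snR69 was low as well, with 1.97, 2.35, 1.88 and 2.12, and its summit lay at 6, 4, 8 and -1 bp, on the annotated start.

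Some snoRNAs with functions beyond the common guides lay between these extremes; they were picked after their values were seen. snR30, an H/ACA RNA needed to process small-subunit ribosomal RNA, had 5.02, 5.02, 5.14 and 4.84. snR10, an H/ACA RNA that takes part in early cuts of the precursor, had 5.56, 5.43, 5.74 and 5.69. snR4 and snR45, C/D RNAs known to guide acetylation of ribosomal RNA by Kre33, had 5.08, 4.80, 4.71 and 4.96, and 4.31, 4.44, 4.43 and 4.3. snR10 was the highest and snR45 the lowest of these 4 genes in every list, and the values of snR30 and snR4 overlapped.

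A group of 4 single genes had no summit in the window in any list. They are the H/ACA genes snR80 and snR36 and the C/D genes snR87 and snR79. At snR87 an open region overlapped the window, and a summit of 7.77, 7.93, 7.40 and 8.18 lay farther out at -557, -556, -559 and -562 bp. At snR80 the nearest summit lay downstream, at 565 bp in code 8 at 0 min with a height of 3.23. At snR36 the nearest was upstream at -1467 bp with 6.31, and at snR79 it was 2047 bp downstream with 3.01, the next one upstream being at -17822 bp. At the latter 3 genes no region touched the window.

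An open region often extended over the whole snoRNA gene. In code 8 at 0 min 43 of the 76 members, and 33 of the 51 single ones, lay wholly inside open regions, against 308 of 6002 protein-coding genes (5.13%) and 272 of 275 tRNA genes. Gene length goes with this share, as the median length was 125 bp for snoRNA, 1200 bp for protein-coding and 73 bp for tRNA genes. The part of length in the difference was not tested. In all 4 lists 30 single and 8 clustered members were wholly open. In the first list the 33 single genes that were wholly open and had a summit had it at a median of -147 bp with height 4.86, and the 8 that had a summit and lay outside open regions had it at -222 bp with height 2.74. Counting also genes without a summit, 10 single genes lay outside open regions in all lists. Among them were snR84, with a distant summit that is high by relative pileup, and the low genes snR71, snR58 and snR50.

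The 5 clusters shared a layout in which the highest upstream summit stood well before the first gene. All 5 first genes had a summit in every list, at medians of -332, -330, -328 and -336 bp and 5.10, 4.85, 4.91 and 5.03 times background. Of the 12 later genes 6, 5, 4 and 5 had one, with medians of 2.37, 1.99, 2.35 and 1.52. These genes held 4, 4, 3 and 4 distinct summits, and a shared summit entered the median once per gene. All 17 clustered genes are C/D genes.

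**Figure D3:**
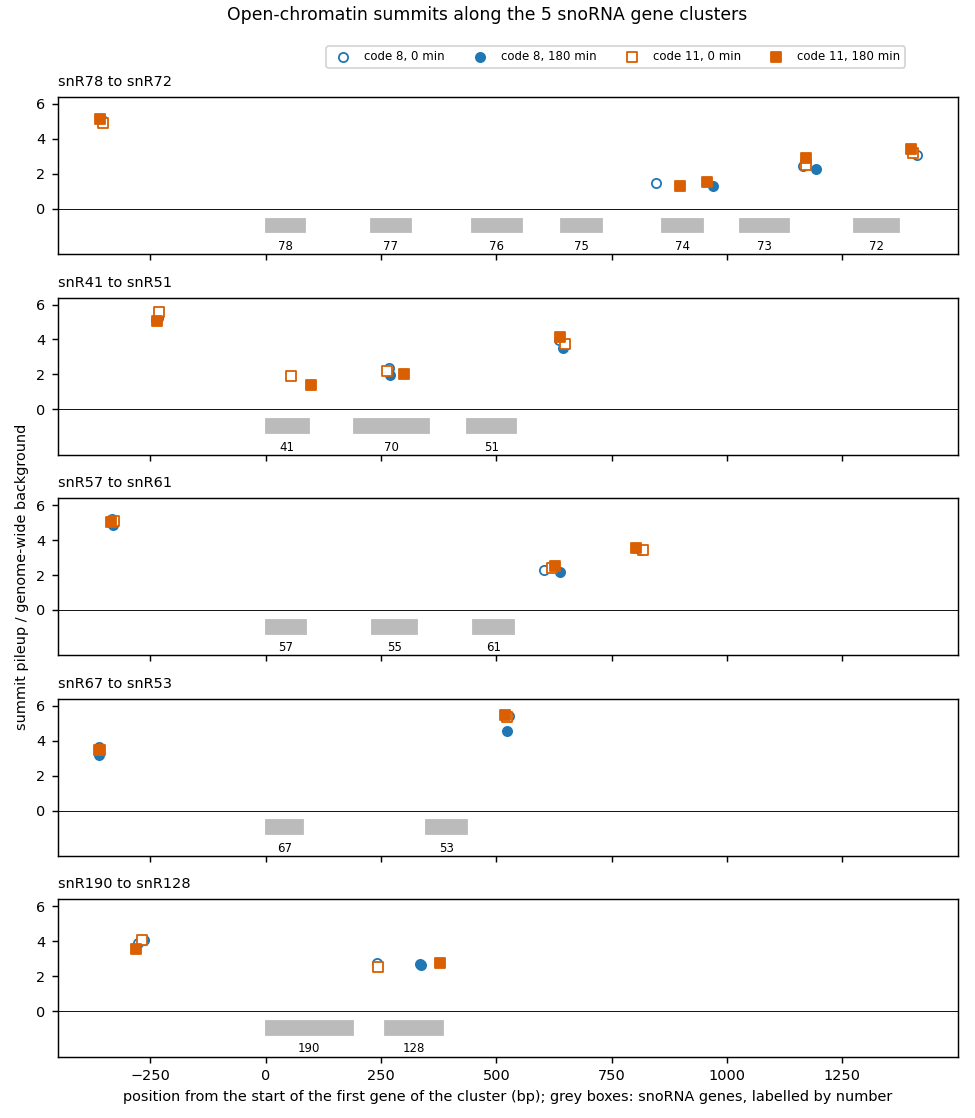
Summits along the 5 snoRNA clusters, with position from the start of the first gene (horizontal axis, bp, along the direction of transcription), height as relative pileup (vertical axis) and genes as grey boxes labelled by number. Each cluster shows a summit from -362 to -232 bp in all 4 lists and lower or no summits over the genes, and 4 of them show a further summit past their last gene.

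The largest cluster holds the 7 genes snR78, snR77, snR76, snR75, snR74, snR73 and snR72 in that order on chromosome XIII from 297278 to 298651 (sacCer3). Its leading summit lay at -354, -355, -352 and -359 bp from the start of snR78 and measured 5.10, 5.10, 4.91 and 5.17. The same summit was the highest of SEC59, the divergent neighbour, in code 8 at 0 min. No open region overlapped the window of snR76 in any list, and snR77 and snR75 had no summit. A second region of 842, 747, 849 and 845 bp began near snR74 and ran past the end of snR72. In it one summit upstream of snR72 measured 2.43, 2.29, 2.52 and 2.90, and one just past snR72 measured 3.10, 3.28, 3.17 and 3.41. Low summits around snR74, from 1.31 to 1.52, came and went between lists.

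snR41, snR70 and snR51 form a cluster on chromosome XVI from 718700 to 719242, the only one that lay in a single region in every list, of 2471, 2365, 2471 and 2424 bp. Its leading summit at -233, -237, -232 and -235 bp measured 5.24, 5.12, 5.57 and 5.04. A lower summit inside snR70 measured 2.37, 1.99, 2.17 and 2.04, and one downstream of snR51 measured 3.98, 3.51, 3.72 and 4.12. Openness along this cluster thus dipped over the genes and was higher on both sides.

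snR57, snR55 and snR61 lie on chromosome XII from 794486 to 795024. Their leading summit of 5.2, 4.85, 5.10 and 5.03 stood at -332, -330, -328 and -336 bp in a region of 322 to 363 bp that did not reach snR57. A separate region started after snR55 and held summits past snR61, the higher of which measured 3.43, 3.43, 3.42 and 3.52. snR55 and snR61 had no summit in their windows.

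The pair snR67 and snR53 on chromosome V, from 61352 to 61789, was the one cluster whose downstream summit exceeded its leading summit. The leading summit at -361, -361, -360 and -362 bp measured 3.64, 3.20, 3.47 and 3.46. The downstream one, at 527, 523, 524 and 519 bp from the start of snR67 and past the end of snR53, measured 5.43, 4.57, 5.34 and 5.46. snR53 lay wholly inside that downstream region and had no summit of its own.

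The pair snR190 and snR128 on chromosome X, from 139566 to 139950, encodes U14 as snR128, an RNA needed for small-subunit ribosomal RNA. The leading summit at -277, -263, -267 and -281 bp measured 3.88, 4.08, 4.05 and 3.58 and was also the highest one of the divergent gene RPA34, a subunit of RNA polymerase I, in code 8 at 0 min. One region of 1030, 1005 and 986 bp covered both genes in the first 3 lists. In code 11 at 180 min it was split into regions of 457 and 472 bp.

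All 8 intronic snoRNA genes lay outside open regions in all 4 lists, at 193 to 901 bp inside their hosts. Their hosts ranged from high promoter summits to none. EFB1, a translation elongation factor gene and host of snR18 (U18), had a window summit of 8.75 and 9.25 in code 8 and of 9.25 in code 11 at 180 min. In code 11 at 0 min its highest nearby summit, 11.4, lay at -562 bp outside the window, where the other lists also had one. ASC1, host of snR24 and a gene for a ribosome-associated protein, measured 7.11, 6.60, 6.77 and 7.17. RPL7A and RPL7B, paralogous genes of a large-subunit ribosomal protein and hosts of snR39 and snR59, measured 5.82, 5.46, 5.85 and 5.70 and 4.80, 4.57, 4.50 and 4.76. TEF4, an elongation factor gene and host of snR38, measured 4.47, 4.64, 4.48 and 4.6.

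NOG2, the gene of a GTPase of large-subunit assembly and host of snR191, was the lowest host with a summit, at 1.88, 1.72, 1.85 and 1.61. RPS22B, a small-subunit ribosomal protein gene and host of snR44, and IMD4, an IMP dehydrogenase gene and host of snR54, had no summit in their windows in any list. Only at snR18 and snR38 did a region of the host promoter reach the window of the snoRNA itself.

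**Figure D4:**
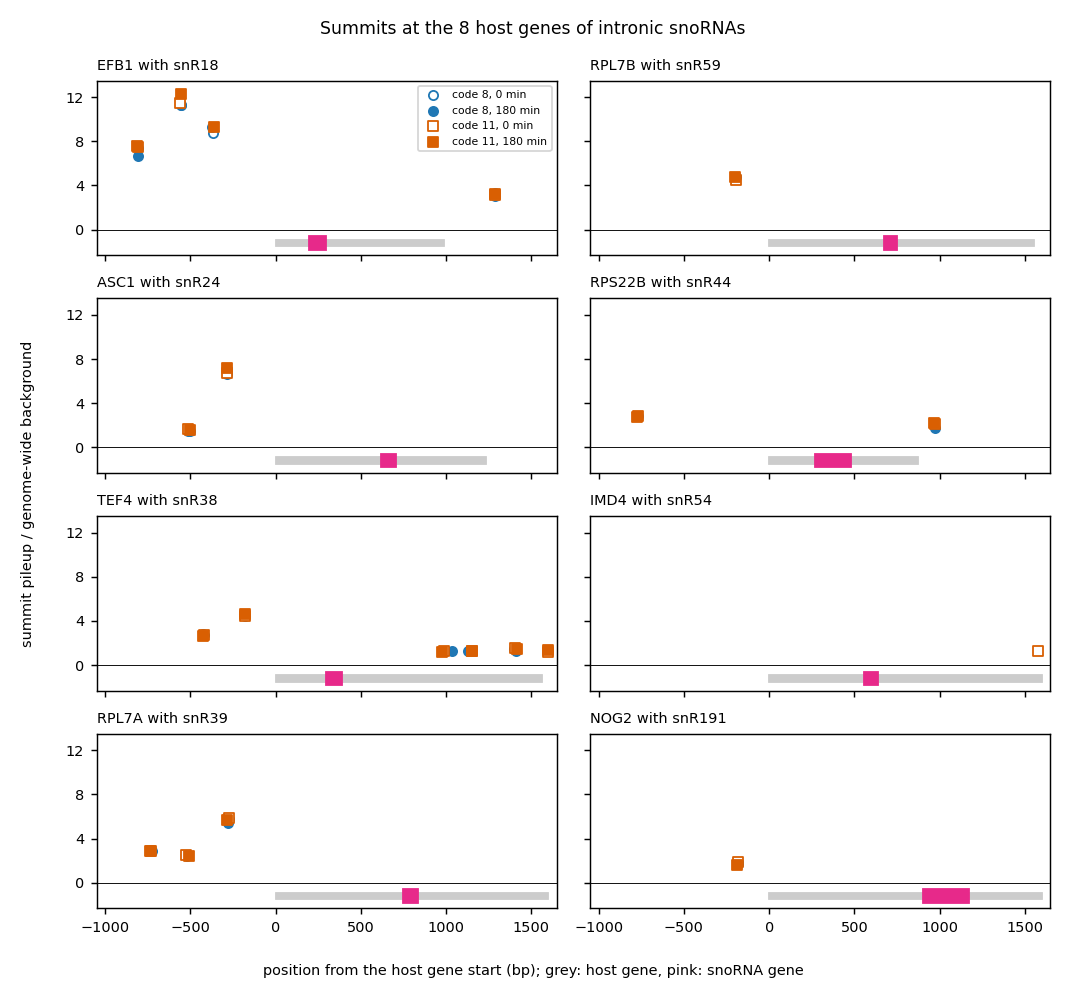
Summits at the 8 host genes, with position from the host start (horizontal axis, bp, long hosts run past the right edge), height as relative pileup (vertical axis), the host in grey and the snoRNA in pink. Markers stand upstream of the hosts or past the snoRNA, and none stands over a snoRNA gene in any of the 4 lists.

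The comparison of 0 with 180 min addresses what happens at these genes after beta-estradiol. Few calls changed. In code 8, 3 of 58 snoRNA genes no longer had a summit in the window at 180 min, 5.17% against 3.58% of all genes, and 0 of 18 gained one, against 6.42% of all genes. In code 11, 2 of 55 lost theirs, 3.64% against 4.22%, and 2 of 21 gained one, against 4.88%. With so few genes these shares are near the background.

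The changed calls were of low or shifted summits. In code 8 snR66, a C/D guide, lost a summit of 1.2 times background at -368 bp, near both the calling threshold and the window edge. snR74 lost one of 1.45 at -15 bp, and a summit of 1.31 appeared at 110 bp, outside the window. snR13, a C/D guide on chromosome IV, had summits of 3.75 at -125 bp, 3.78 at 0 bp and 4.03 at 157 bp, of which at 180 min only that downstream of the window remained, with 5.08 at 142 bp. In code 11 snR128 went from 2.55 at -15 bp to 2.74 at 118 bp, outside the window. snR43, an H/ACA guide, lost a summit of 1.69 at 46 bp, and no region overlapped its window any more. snR73 and snR74 gained a shared summit of 1.52. At each of the lost genes other than snR43 an open region still overlapped the window at 180 min.

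Heights barely moved as a group. Across the 55 snoRNA genes with a summit at both times in code 8 the median log2 change, 180 over 0 min, was -0.03 (SD over genes 0.14), and that of all genes was also -0.03. Of these 23 were higher and 32 lower. In code 11 the median over 53 genes was -0.01 (SD over genes 0.13), against 0.04 for all genes, with 23 higher and 30 lower. A change of at least 1.2-fold upward was seen at 1 of 55 members in code 8, snR47, against 3.54% of all genes, and downward at 0, against 2.28%. In code 11 it was seen upward at 0 of 53, against 1.43%, and downward at 1, snR70, against 0.985%. At 1.5-fold the count was 0 upward and 0 downward in code 8, against 0.223% and 0.0743% of all genes, and 0 upward and 1 downward in code 11, against 0.172% and 0.148%. The counts are close to what the shares over all genes give.

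**Figure D5:**
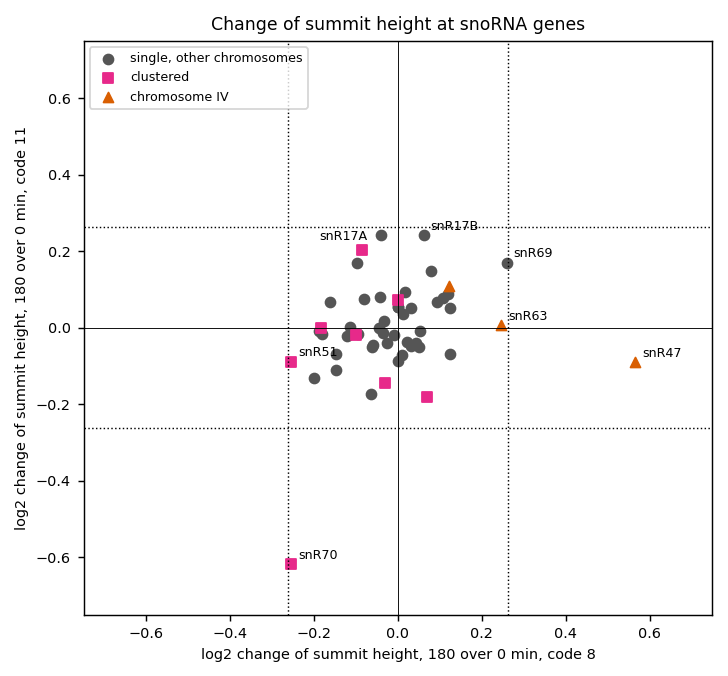
Log2 change of summit height from 0 to 180 min in code 8 (horizontal axis) and code 11 (vertical axis) for snoRNA genes with a summit in all 4 lists, with dotted lines at 1.2-fold. snR47 on chromosome IV stands to the right at 0.57 in code 8 and -0.09 in code 11, and snR70 stands at the bottom at -0.62 in code 11.

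snR70 passed the fold because another summit was read. Its highest window summit lay inside the gene at 72 bp with 2.17 in code 11 at 0 min, and at 180 min the inside summit lay at 107 bp with 2.04, past the window edge, so a summit of 1.42 at -94 bp was taken. The next largest falls in code 11 were at snR13, from 4.04 to 3.49, snR190, from 4.05 to 3.58, snR161, from 2.37 to 2.10, and snR41, from 5.57 to 5.04. snR161 is an H/ACA gene that shares its summit with TLC1, the gene of telomerase RNA. The largest rises in code 11 were at the U3 genes snR17B, from 6.98 to 8.26, and snR17A, from 7.62 to 9.01, followed by snR72, snR69 and snR11 at log2 changes of 0.20, 0.17 and 0.17. In code 8 the U3 genes went from 7.22 to 7.54 and from 8.97 to 8.72. The U3 genes thus stayed under 1.2-fold in both codes.

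In code 8 the largest falls were at snR51 and snR70, which share a summit that went from 2.37 to 1.99, and at snR49, snR60 and snR67 with log2 changes of -0.20, -0.19 and -0.18. The largest rises were at snR47, snR69, snR63, snR43 and snR48, at 0.57, 0.26, 0.25, 0.15 and 0.12. snR47 and snR63, both C/D guides, are on chromosome IV.

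The 4 snoRNA genes of chromosome IV were read separately, because the design targets the centromere of that chromosome. snR47, from 541602 to 541700, lies 92.0 kb from the estimated CEN4 midpoint, snR63 lies 126.3 kb from it, and snR13 and snR84 lie 953.2 and 1043.3 kb away. At snR47 the summit was 4.14 at first and 6.14 at the later time in code 8, against 4.18 and 3.93 in code 11. At snR63 it measured 3.66 and 4.34 in code 8 and 3.46 and 3.48 in code 11. At snR84 it measured 7.63 and 8.30 in code 8 and 7.16 and 7.72 in code 11. By relative pileup all 3 genes with a summit at both times in code 8 were thus higher at 180 min, and in code 11 2 of 4 were. By the authors' fold over local background only snR47 rose in code 8, from 2.16 to 2.51. On that scale snR63 went from 3.25 to 2.95 and snR84 from 3.29 to 3.11. In code 11 the fold rose at snR47, snR63 and snR84 and fell at snR13.

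The rises of relative pileup in code 8 went with the whole chromosome. Relative pileup is set against the genome-wide background of a list and was not corrected for the number of copies of a chromosome. Whether copies of chromosome IV changed was not tested. In code 8 the median log2 change was 0.18 over the 549 genes of chromosome IV with a summit at both times and -0.05 over genes elsewhere, and 23.3% of the former against 0.43% of the latter were at least 1.2-fold higher. In code 11 the medians were 0.05 and 0.04. Other genes within 25 kb of snR63 had a median of 0.26 in code 8, beside 0.25 for snR63, and those near snR84 had 0.13, beside 0.12. By relative pileup snR47 exceeded its surroundings, at 0.57 against a median of 0.21 and a range of 0.13 to 0.37 over 12 other genes. Its 2 further summits upstream, outside the window, went from 5.59 to 6.31 and from 5.25 to 6.23 in code 8, and from 5.86 to 5.21 and from 5.64 to 4.58 in code 11. The part of the chromosome-wide shift in these values was not tested. Off chromosome IV the snoRNA median in code 8 was -0.03 and no member passed 1.2-fold.

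Between the codes at 0 min the snoRNA genes were alike in level. The log2 difference, code 11 over code 8, ran from -0.23 to 0.12 over 55 genes, and 0 passed 1.2-fold in either direction, against 0.244% higher and 0.268% lower over all genes. At 180 min it ran from -0.64 to 0.34 over 53 genes, with 1 at least 1.2-fold higher and 3 lower, against 2.29% and 3.03% over all genes. The lower ones were snR47 and snR63, both on chromosome IV, and snR70, for which another summit was read in code 11.

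Genes that make snoRNA particles were read in the same way. All 4 C/D core protein genes (NOP1, NOP56, NOP58 and SNU13) and all 4 H/ACA core protein genes (CBF5, GAR1, NHP2 and NOP10) had a promoter summit in every list. NHP2 was the highest of the 8, at 6.06, 6.59, 5.99 and 5.94, and NOP1, the methyltransferase gene, the lowest at 1.92, 2.44, 1.75 and 1.57. Of 9 assembly factor genes 4 had a summit in both code 8 lists and 5 in both code 11 lists, the difference being RVB2, an ATPase gene, at 3.42 and 3.35 in code 11. Of 10 genes of transcript ending and processing 6 had one in each list, and RNT1, SEN1, RRP6 and XRN1 had none. Over all genes the share with one was 65.1, 65.0, 65.9 and 64.8%.

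Within these lists no summit was lost or gained. At least 1.2-fold higher in code 8 were NOP1, from 1.92 to 2.44, and LHP1, the gene of the yeast La protein, from 5.91 to 7.57. Both are on chromosome IV, and in code 11 they measured 1.75 and 1.57, and 6.08 and 6.44. In code 8 3.54% of all genes, and 23.3% of those on chromosome IV, were at least 1.2-fold higher. No gene of the lists passed 1.2-fold downward in code 8 or in either direction in code 11. Over all genes these shares were 2.28% in code 8, and 1.43% upward and 0.985% downward in code 11. TBF1, the gene of the snoRNA promoter factor, measured 3.46, 3.11, 3.21 and 3.30. REB1, the gene of a general promoter factor, measured 9.81, 10.8, 9.35 and 11.2.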

How the data were processed

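Per the submitters' processing notes, Bowtie2 2.3.4.3, SAMtools, Picard, HOMER and MACS2 2.2.4 were used with the sacCer3 build; for their roles, for any shift of reads at the Tn5 cut and for pooling of experiments before calling, details are not given in the sources used here. Per sub-peak, the deposited lists hold a score equal to 10 times its -log10 p cut to a whole number, the authors' fold over local background (a linear ratio), and -log10 p and -log10 q by the authors' caller. From that deposited fold and -log10 p the summit pileup and local background were solved, taking the fold as (pileup + 1)/(background + 1) and p as the Poisson chance of a higher pileup. The pileups were whole within 0.05 at 99.1 to 99.8% of summits, where chance gives 10%, and the calculation was tested on simulated data. A relative pileup measures height against the list's own background, so it is not an absolute count.

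Genes came from a RefSeq table of assembly R64, the assembly that sacCer3 holds, with strands read from systematic names; 1 gene without a strand was left out. Python 3.11.15, numpy 2.4.6, pandas 2.3.3 and SciPy 1.17.1 were used. Named genes are members with a changed call or no summit, clustered and intronic members, hosts, genes of the snoRNA particle lists, chromosome IV members, the 5 highest and 5 lowest single genes, and the 5 largest rises and falls per code; those beyond this rule are said in the text to be picked after their values were seen. Members and lists were chosen with earlier results of these data known. Promoter sequences were not used here, so a planned motif search was not run. Alternatives were another window, -log10 q of at least 50, any region over the window, equal list lengths, the authors' fold, centring, summit matching and wider cluster gaps.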

Additional observations from a re-analysis of the deposited data

Results flagged for a closer look

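The time change of relative pileup at snR47, the C/D guide gene 92.0 kb from the estimated CEN4 midpoint, went opposite ways in the codes. Its log2 height changed by 0.57 in code 8 and by -0.09 in code 11, which leaves 0.66 between them, and this difference was not tested. The median over all genes of chromosome IV was 0.18 in code 8 and 0.05 in code 11.

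The call at snR74, a C/D guide gene inside the cluster of 7 genes, also went opposite ways. Its summit of 1.45 times background in code 8 at 0 min was gone from the window at 180 min, and in code 11 a summit of 1.52 was present at 180 min only. These values stood at percentiles 0.8 and 1.2 of all genes with a summit in their lists, and this difference was not tested.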

How the results depend on the processing

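For 29 results 95 values were computed under alternative settings, each on the results it bears on; 68 values stayed within 1.5 times (counts) or within the interval of the median, and 27 moved. No paired analysis was possible because the lists carry no replicate number, and for the same reason no replicate could be left out. With a window of 200 bp upstream 37, 36, 36 and 36 snoRNA genes had a summit, and 2 gained one in code 8. With 1000 bp upstream the lost genes were 1 in code 8 and 1 in code 11, and 1 was gained in code 8. At -log10 q of at least 50, 1 was lost and 1 gained in code 8 and 1 gained in code 11. Counting any region over the window, 1 was lost in code 8, 1 was lost in code 11 and 0 were gained in code 11. By the authors' fold the median height was 3.09, 3.07, 3.12 and 3.15 over all classes and 3.23, 3.24, 3.18 and 3.21 for single genes, and the median change in code 8 was 0.030. These medians of height were judged against the interval of the median relative pileup, which is on another scale. Their moves therefore cannot be read as a dependence on processing. Centred on all genes the median change in code 11 was -0.047, and 3 genes were at least 1.2-fold higher in code 8. Without centring, 1 gene was at least 1.2-fold higher in code 8. That uncentred count was 0 at 1.5-fold and, in an alternative added after the data were seen, 0 without chromosome IV. Causes of the other moves were not tested. The number of reads behind each list is unknown, so depth limits can be read from the relative background alone.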
